A study of Mus musculus with 15 samples.

Results

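The genes described here encode the proteins of the mitochondrial ribosome (mitoribosome). All protein-coding mouse genes whose symbol starts with Mrpl or Mrps followed by a digit were taken, which gave 78 of the 55421 genes counted, 49 Mrpl and 29 Mrps genes. mRNA was sequenced from 15 samples of CD4+ T cells of the C57BL/6 strain. They had been transferred as naive CD4+CD25-CD44-CD62L+ cells into Rag2-/- mice, hosts with no T or B cells of their own, as a model of colitis. After 6 weeks the T cells were sorted from 2 organs, spleen and mesenteric lymph node (mLN). Both genotypes carried PRKAA1fl/fl, the floxed gene of the catalytic subunit AMPKα1 of the energy sensor AMPK, and the knockout (KO) carried CD4-Cre in addition, so that the gene is deleted during T cell development, while the wild type (WT) had no Cre. In the study, hosts of WT cells lost weight and had severe disease, whereas hosts of KO cells kept their weight and were only mildly inflamed. Genotype and disease of the host therefore cannot be told apart here. The groups held 4 WT spleen, 4 KO spleen, 3 WT mLN and 4 KO mLN samples, since the study excluded 1 WT mLN sample on quality.

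Mitochondria make the few proteins their own genome encodes, all of them subunits of the oxidative phosphorylation complexes, on a ribosome that is separate from the cytosolic one. Its rRNAs come from the mitochondrial genome, whereas every protein of it is encoded in the nucleus, made in the cytosol and imported. Activated T cells enlarge their mitochondria, and inhibitors of mitochondrial translation limit their expansion. A large share of these proteins have a counterpart in the bacterial ribosome and the others are particular to mitochondria. By symbol, 30 of the 78 genes belonged to the large subunit with a bacterial counterpart, 21 to the large subunit and particular to mitochondria, 16 to the small subunit with a bacterial counterpart and 10 to the small subunit and particular to mitochondria. The remaining gene, Mrps36, encodes a protein that is now known as part of the 2-oxoglutarate dehydrogenase complex of the citric acid cycle.

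The 78 genes lay on 17 chromosomes, 11 of them on chromosome 11. The start of 18 genes faced the start of a protein-coding gene on the other strand within 1000 bases, as for Mrps12 and Sars2 (172 bases apart), Mrpl49 and Fau (59 bases) or Mrpl51 and Ncapd2 (100 bases). Promoter windows from RefSeq (GRCm38.p6; 250 bases before to 50 bases after the listed start, the first window of each gene) were found for 69 of the 78 genes. A set of 4 short motifs was searched on both strands. The ETS core CCGGAAG stood in 25 of the 69 windows (36.2%), against 9.12% of the windows of all 27025 genes in the table. CATGCGC, a part of the NRF1 motif, stood in 8 windows (11.6%, against 4.04%), and ATGGCGG, a part of the YY1 motif, in 13 windows (18.8%, against 4.19%). The E-box CACGTG stood in 5 windows, or 7.25%, with 7.24% over all genes. None of these 4 motifs contains another. The genes of the table were neither limited to expressed genes nor matched to the family on GC content. Upstream stretches are printed for the 4 genes that were higher in mLN than in spleen T cells in both genotypes and whose stretch of at least 100 upstream bases free of annotated exons held a searched motif. Capitals mark the motif, and the strand is that of the gene.
Mrpl2, chr17:46646023-46646220, forward strand: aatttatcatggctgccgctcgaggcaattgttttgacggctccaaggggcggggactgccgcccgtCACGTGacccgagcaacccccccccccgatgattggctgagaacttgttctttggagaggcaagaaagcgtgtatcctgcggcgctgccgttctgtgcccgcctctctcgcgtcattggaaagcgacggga
Mrpl34, chr8:71464676-71464925, forward strand: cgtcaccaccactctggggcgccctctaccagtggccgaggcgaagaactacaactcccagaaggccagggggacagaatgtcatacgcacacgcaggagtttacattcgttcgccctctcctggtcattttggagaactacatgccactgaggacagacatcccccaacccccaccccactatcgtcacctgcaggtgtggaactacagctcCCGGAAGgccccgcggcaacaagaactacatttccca
Mrpl52, chr14:54426659-54426908, forward strand: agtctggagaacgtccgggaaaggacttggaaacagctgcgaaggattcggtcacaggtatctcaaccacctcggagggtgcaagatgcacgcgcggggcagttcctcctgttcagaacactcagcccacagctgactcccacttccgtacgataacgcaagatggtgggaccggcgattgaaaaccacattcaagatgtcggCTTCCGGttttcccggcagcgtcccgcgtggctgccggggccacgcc
Mrpl58, chr11:115403502-115403751, forward strand: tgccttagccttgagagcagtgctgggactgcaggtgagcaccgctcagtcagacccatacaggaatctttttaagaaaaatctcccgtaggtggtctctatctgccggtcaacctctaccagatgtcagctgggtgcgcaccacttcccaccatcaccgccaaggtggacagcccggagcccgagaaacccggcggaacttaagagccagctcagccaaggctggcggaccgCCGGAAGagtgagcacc
The capitals are the E-box in Mrpl2, the ETS core on the gene's strand in Mrpl34 and Mrpl58, and its reverse complement CTTCCGG in Mrpl52. A match of letters says nothing of binding.

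Reads counted on genes ranged from 9363940 to 11283439 per sample. Levels are given as CPM, read counts scaled to a common library size with TMM factors, which set the samples to one scale. Prkaa1 was lower in all 8 KO samples (18.5 to 32.4 CPM) than in all 7 WT samples (46.7 to 60.7 CPM). The 9 T cell markers summed to 7050 to 9260 CPM in WT spleen and 8460 to 9220 CPM in WT mLN. In KO they summed to 8240 to 8860 CPM in spleen and 9320 to 9980 CPM in mLN. Before TMM scaling, the 5 erythroid markers summed to 1840 CPM in WT spleen replicate 3, 877 CPM in WT spleen replicate 4 and 788 CPM in WT mLN replicate 4, and to between 17.5 and 117 CPM in the other 12 samples.

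All but 1 of the 78 genes were well detected. Mrpl53, a large-subunit gene, had at most 7 reads in a sample and failed the filter on low counts, and 695 of its 790 exon bases lie under Gm42688 on the same strand. The other 77 had at least 75 reads in each sample and were tested in every comparison. The median level of the 78 genes was 47.4 CPM. Per kilobase of exon, the 5 highest were Mrpl18 (85.8 CPM per kb), Mrpl41 (59.3), Mrpl54 (58), Mrps21 (55.6) and Mrpl36 (50.9). The 5 lowest were Mrpl13 (5.07 CPM per kb), Mrps35 (3.76), Mrps10 (3.70), Mrpl23 (2.75) and Mrpl53 (0.262). Mrps36 stood low as well, at 6.94 CPM per kb. All exons annotated to a gene were counted in its length, so a gene with long exons that these cells do not use appears low on this scale.

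**Figure D1:**
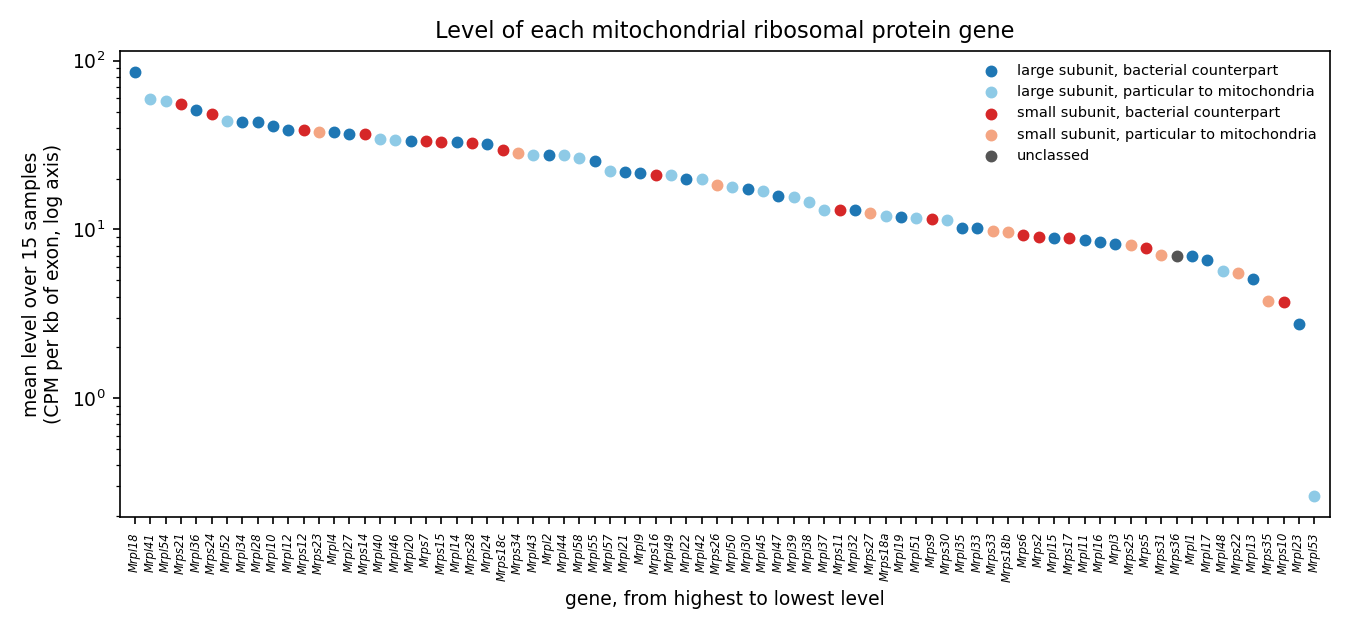
Level of each of the 78 genes, as the mean over 15 samples in CPM per kb of exon on a log axis, from the highest to the lowest, coloured by subunit and by whether the protein has a bacterial counterpart. The range runs from Mrpl18 at 85.8 to Mrpl23 at 2.75, both large-subunit genes with a bacterial counterpart, and Mrpl53 stands apart at 0.262. Small-subunit genes run from Mrps21 at 55.6 to Mrps10 at 3.70.

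Among the 77 genes with a mean of at least 5 CPM, samples of a group held close values. The standard deviation within a group was, as a mean over the 4 groups, smallest for Mrpl15 (4.24% of the mean), Mrpl46 (4.69%) and Mrpl19 (4.70%) and largest for Mrps35 (14.7%), Mrps27 (14%) and Mrps36 (14%). Mrps27 encodes an RNA-binding protein of the small subunit.

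Summed over the 78 genes, the level was 3440, 3351, 3521 and 3317 CPM in the 4 WT spleen samples and 3375, 3386, 3627 and 3665 CPM in the 4 KO spleen samples. In mLN it was 4204, 4142 and 4226 CPM in the 3 WT samples (replicates 1, 2 and 4) and 4379, 4231, 3889 and 4130 CPM in the 4 KO samples. The genotypes overlapped in each organ, whereas the lowest mLN sample lay above the highest spleen sample. As a ratio of group means, KO was 1.03 times WT in spleen and 0.992 times WT in mLN. The mLN mean was 1.23 times the spleen mean in WT and 1.18 times in KO. In these bulk samples, a smaller share of a cell type and less RNA per cell cannot be told apart.

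**Figure D2:**
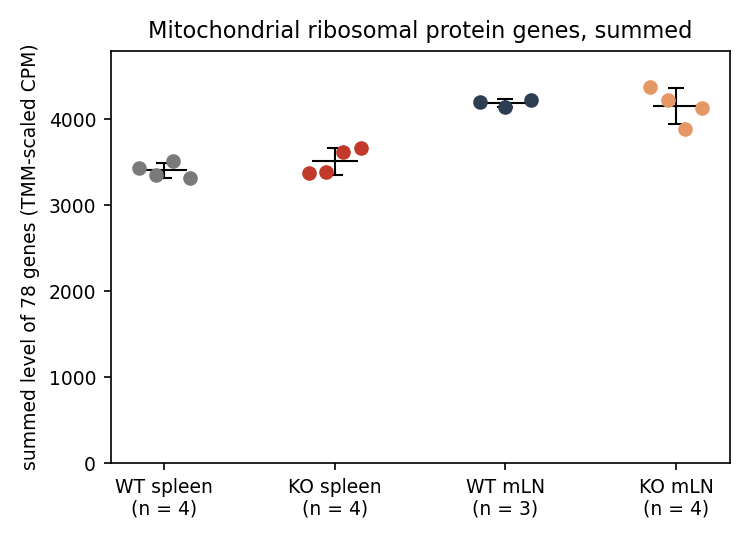
Summed level of the 78 mitochondrial ribosomal protein genes in TMM-scaled CPM. Points are samples, and the line and bar give the mean and SD of the group. Spleen samples lie between 3317 and 3665 CPM and mLN samples between 3889 and 4379 CPM in both genotypes.

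The comparison of KO with WT asked whether mRNA levels of mitoribosomal proteins differ between the genotypes in T cells that have expanded in vivo. As said above, disease of the host differed along with genotype. No gene of the family passed the threshold (edgeR's quasi-likelihood test, Benjamini-Hochberg adjusted p under 0.05 over all genes) in either organ, and the family's values lay around those of all genes. In spleen, 0 of 77 were higher and 0 lower, against 0.547% and 0.751% of the 14254 genes tested, and the smallest adjusted p from edgeR was 0.0781. In mLN, again 0 were higher and 0 lower, against 0.348% and 0.292% of 14359 genes, with a smallest edgeR adjusted p of 0.235. At an unadjusted p under 0.05, 19 of 77 were found in spleen (12 higher and 7 lower in KO) and 10 in mLN (4 higher and 6 lower). These are 24.7% and 13% of the family, beside 20.5% and 15.7% of all genes tested. DESeq2 called 1 gene lower in spleen and none in mLN. The median log2 fold change of the family was 0.041 in spleen, beside -0.0041 over all genes, and 0.0092 in mLN, beside -0.0038. In spleen 48 of the 77 values were positive, and in mLN 40.

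All 4 KO samples lay above all WT samples for 7 genes in spleen and below them for 6, with backgrounds of 5.90% and 6.13% of all genes. In mLN the counts were 4 and 3, with backgrounds of 6.62% and 7.37%. Over the 77 genes, the log2 fold changes of KO against WT lay between -0.33 and 0.50 in spleen and between -0.45 and 0.45 in mLN.

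Mrps34, a small-subunit protein particular to mitochondria, was at 55.3, 51.7, 54.6 and 53.0 CPM in WT spleen and at 42.2, 45.2, 46.6 and 46.2 CPM in KO spleen. In mLN it was at 66.8, 79.4 and 83.9 CPM in WT and at 68.0, 64.9, 56.9 and 59.8 CPM in KO. The genotypes did not overlap in spleen but overlapped in mLN. The log2 fold change of KO against WT was -0.25 (SE 0.065) in spleen with an edgeR adjusted p of 0.0781, and -0.30 (SE 0.12) in mLN with an edgeR adjusted p of 0.25. This is the gene that DESeq2 called in spleen (adjusted p = 0.0453), and the other settings gave adjusted p-values up to 0.275. Of its 2064 exon bases, 763 lie under Nme3 on the same strand and 1309 under Mapk8ip3 on the other, and the strand used in counting is not given in the sources used here.

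Mrpl2, a protein of the large subunit's catalytic core, was at 28.6, 31.4, 30 and 29.2 CPM in WT spleen and at 23.6, 26, 22.7 and 24.8 CPM in KO spleen. In mLN its values were 37.6, 49.0 and 45.0 CPM in WT and 33.5, 38.2, 28.7 and 35.7 CPM in KO. KO spleen lay below WT spleen throughout, and 1 KO mLN sample reached into the WT range. Mrpl2 exons overlap no other gene, and its log2 fold change was -0.30 (SE 0.082) in spleen and -0.37 (SE 0.15) in mLN, with edgeR adjusted p-values of 0.0932 and 0.262.

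Mrps10, a small-subunit protein with a bacterial counterpart, was at 29.5, 30.1, 31.4 and 32.2 CPM in WT spleen and at 26.5, 29.2, 24.2 and 24.3 CPM in KO spleen. In mLN it was at 35.2, 37.8 and 34.8 CPM in WT and at 24.8, 29.0, 28.3 and 31.4 CPM in KO. It is thus a gene whose genotypes overlapped in neither organ, with a log2 fold change of -0.24 (SE 0.09) in spleen and -0.34 (SE 0.13) in mLN and edgeR adjusted p-values of 0.168 and 0.255.

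Values in the other direction were seen for Mrps6, a small-subunit protein with a bacterial counterpart. It was at 9.88, 9.51, 11 and 7.99 CPM in WT spleen and at 12.5, 11.7, 14.1 and 16 CPM in KO spleen. In mLN it was at 13.9, 14.8 and 13.8 CPM in WT and at 18.8, 21.8, 16.2 and 20.8 CPM in KO. The genotypes overlapped in neither organ. The log2 fold change was 0.50 (SE 0.15) in spleen and 0.45 (SE 0.17) in mLN, with edgeR adjusted p-values of 0.107 and 0.243. Part of its exons, 464 of 1533 bases, is shared with Slc5a3, a myo-inositol transporter, and Gm49711. Mrpl51 likewise had no overlap in either organ, with KO higher. Its log2 fold change was 0.27 (SE 0.097, edgeR adjusted p = 0.161) in spleen and 0.27 (SE 0.12, edgeR adjusted p = 0.306) in mLN. It was named after its values were seen. The share of all genes without overlap in both organs was not counted.

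In spleen, the smallest p-values after Mrps6 of genes with a positive value were those of Mrpl50 and Mrpl33. Mrpl50 was at 30.4, 31, 34.4 and 34.5 CPM in WT and at 41.1, 34.7, 39.2 and 43.4 CPM in KO (log2 fold change 0.28, SE 0.091, edgeR adjusted p = 0.129). Mrpl33 was at 64.0, 58, 59.0 and 61.6 CPM in WT and at 66.5, 70.5, 70.3 and 68.2 CPM in KO (log2 fold change 0.18, SE 0.061, edgeR adjusted p = 0.14). Both genes had no overlap between the genotypes in spleen and overlapped in mLN. In mLN, Mrps25 was at 56.5, 43.7 and 50.8 CPM in WT and at 59.5, 68.7, 63.8 and 59.0 CPM in KO (log2 fold change 0.32, SE 0.12, edgeR adjusted p = 0.235). Of its 6576 exon bases, 4590 lie under Nr2c2 on the other strand. Mrpl35 was at 41.0, 39.8 and 38.7 CPM in WT mLN and at 51.9, 46.2, 42.7 and 51.8 CPM in KO mLN (log2 fold change 0.27, SE 0.12, edgeR adjusted p = 0.298). In spleen, Mrps25 and Mrpl35 overlapped between the genotypes.

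The comparison of the organs gave a different result. The family was higher in mLN than in spleen T cells, in WT and in KO, by 23% in WT and 18.3% in KO in sum and by less than 1 on the log2 scale for each gene. In WT, 36 of 77 genes rose and 0 fell, which is 46.8% of the family against 9.70% of the 14515 genes tested that were higher and 10.8% that were lower. The median log2 fold change of the family was 0.32, and that of all genes was 2.7e-05. In KO, 27 of 77 rose and 0 fell, or 35.1%, against 11.4% higher and 13.9% lower among the 14240 genes tested, with a median of 0.22 beside 0.0073. Positive values were found for 72 of the 77 genes in WT and 71 in KO. No gene of the family changed by more than 1 on the log2 scale. These tests did not pair the samples by number, and a fit that did called 46 genes in WT and 22 in KO. All 7 mLN samples lay above all 8 spleen samples for 19 of the 78 genes, and for 821 of the 15438 genes tested over all samples (5.32%).

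**Figure D3:**
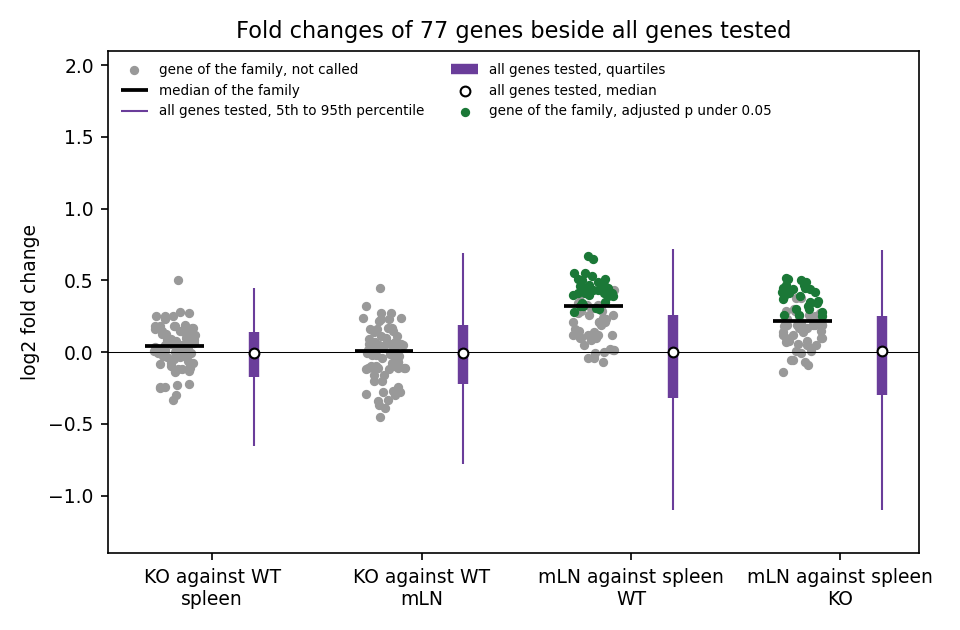
Log2 fold changes of the 77 tested genes in each comparison (points, green where the adjusted p was under 0.05, with the median as a black line), beside the quartiles and the 5th to 95th percentile of all genes tested. The family lies around 0 between the genotypes and above 0 between the organs, with medians of 0.32 in WT and 0.22 in KO.

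The counts changed when a sample was left out, while the median moved little. Over all samples left out in turn, 16 to 31 genes were higher in WT, beside 36 with all samples. In KO, 15 to 30 were higher, beside 27. These fits hold fewer samples, and the share of all genes called in them is not given here. In WT, 16 genes were higher without spleen replicate 1, 16 without spleen replicate 2, 18 without mLN replicate 1, 21 without mLN replicate 2 and 20 without mLN replicate 4. In KO, 15 were higher without spleen replicate 1, 15 without spleen replicate 2 and 16 without spleen replicate 3. The median stayed between 0.29 and 0.35 in WT and between 0.19 and 0.25 in KO over all samples left out in turn. The 3 samples that held over 500 CPM of erythroid markers were also left out together, a choice made after seeing the data. That fit held 2 samples a group, and 4 genes were higher in WT at a median of 0.28. The share of all genes called in that fit is not given here.

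Other values moved with the organ, some of them with overlap. The 9 T cell markers, with the sums given above, lay higher in mLN than in spleen in KO and overlapped between the organs in WT. The 5 neutrophil markers summed to 128 to 504 CPM in the spleen samples and 20.2 to 66.1 CPM in the mLN samples, and Elane and Mpo had at most 3 reads in a KO mLN sample. The 6 macrophage and monocyte markers summed to 116 to 327 CPM in KO spleen and 78.1 to 88.3 CPM in KO mLN. In WT these markers overlapped, at 113 to 203 CPM in spleen and 49.0 to 210 CPM in mLN. The 2 CD8 T cell markers summed to 1.57 to 4.97 CPM in spleen and 7.33 to 28.4 CPM in mLN. Of the uniquely aligned reads, 60.4 to 63.4% in spleen and 58.4 to 61.0% in mLN lay on no gene. The part of these values in the organ difference was not tested.

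Of the genes called, 23 were called in both genotypes, which is 63.9% of the WT calls and 85.2% of the KO calls. Among all genes tested in both, those called higher in both were 66.2% of the WT calls and 57.3% of the KO calls, and the difference from the family was not tested. A further 13 were called in WT alone, 4 in KO alone and 37 in neither. These 2 comparisons share no samples. The difference of the organ effects between the genotypes was tested as an interaction over all 15 samples. It was called for 0 of the 77 genes and 0 of all 15438 genes (0.0% higher and 0.0% lower), with 652 genes at an unadjusted p under 0.05 by edgeR. DESeq2 called 0 of the 77. The smallest p-values in the family were those of Mrpl30 (-0.29, SE 0.12), Mrpl43 (-0.27, SE 0.13) and Mrpl9 (-0.23, SE 0.13), and of these Mrpl30 alone had an unadjusted p under 0.05. The value given first is the log2 fold change of mLN against spleen in KO minus that in WT, and each had an edgeR adjusted p of 1.0. A negative value was found for 55 of the 77 genes, beside 7869 of all 15438. All 3 named genes encode large-subunit proteins.

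**Figure D4:**
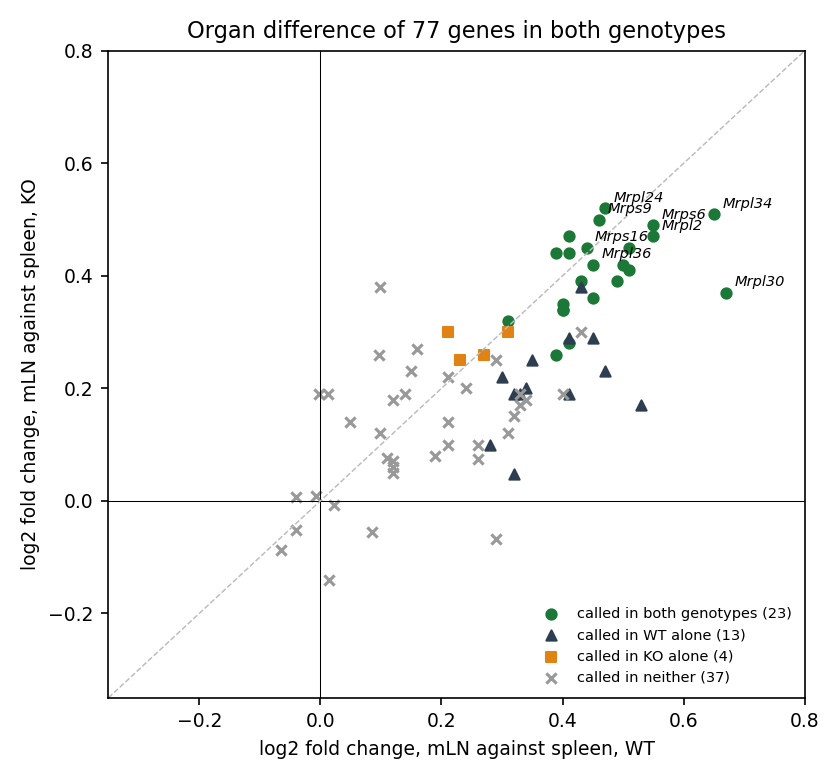
Log2 fold change of mLN against spleen of the 77 tested genes in WT (horizontal axis) and KO (vertical axis), marked by the genotype in which the adjusted p was under 0.05, with the line of equal change dashed. The 23 genes called in both genotypes lie to the upper right, led by Mrpl34, Mrpl2, Mrps6 and Mrpl24, and Mrpl30 stands furthest to the right at 0.67 in WT and 0.37 in KO.

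In the large subunit, 15 of the 30 genes with a bacterial counterpart rose in WT and 14 in KO, at medians of 0.40 and 0.26. Of the 20 tested genes particular to mitochondria, 9 rose in WT and 5 in KO (medians 0.30 and 0.19). In the small subunit, 10 of 16 genes with a bacterial counterpart rose in WT and 6 in KO (medians 0.34 and 0.25). Of the 10 particular to mitochondria, 2 rose in WT and 2 in KO (medians 0.23 and 0.21). The differences between these classes were not tested.

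Mrpl30, a large-subunit protein with a bacterial counterpart, had the largest value in WT. It was at 41.3, 46.3, 44.1 and 42.7 CPM in WT spleen and at 64.2, 81.4 and 64.4 CPM in WT mLN. In KO it was at 48.2, 49.1, 49.6 and 49.3 CPM in spleen and at 66.4, 63.3, 62.9 and 65.3 CPM in mLN. All mLN samples lay above all spleen samples. The log2 fold change was 0.67 (SE 0.11, edgeR adjusted p = 0.0033) in WT and 0.37 (SE 0.073, edgeR adjusted p = 0.00341) in KO.

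Mrpl2, whose promoter stretch with the E-box is shown above, also rose. Its spleen values of 28.6 to 31.4 CPM in WT and 22.7 to 26 CPM in KO compare with 37.6 to 49.0 CPM and 28.7 to 38.2 CPM in mLN. The organs overlapped in neither genotype, although the lowest KO mLN sample lay within the range of WT spleen. It rose by 0.55 (SE 0.11, edgeR adjusted p = 0.0106) in WT and 0.47 (SE 0.11, edgeR adjusted p = 0.0115) in KO. Mrps34, with the values given above, rose by 0.51 (SE 0.098, edgeR adjusted p = 0.0073) in WT and 0.45 (SE 0.087, edgeR adjusted p = 0.00314) in KO.

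Mrpl36, among the smallest proteins of the large subunit, was at 50.7, 51.2, 50.5 and 49.7 CPM in WT spleen and at 73.0, 67.2 and 68.3 CPM in WT mLN. In KO it was at 46.8, 46.4, 56.1 and 52.6 CPM in spleen and at 74.5, 69.4, 63.6 and 65.9 CPM in mLN. The organs did not overlap, with a log2 fold change of 0.45 (SE 0.075, edgeR adjusted p = 0.00386) in WT and 0.42 (SE 0.092, edgeR adjusted p = 0.00671) in KO. Mrps16, a small-subunit protein with a bacterial counterpart, was at 51.5, 51.6, 54.6 and 44.7 CPM in WT spleen and at 71.1, 67.5 and 68.6 CPM in WT mLN. In KO, Mrps16 was at 51.2, 45.4, 55.3 and 56.5 CPM in spleen and at 77.2, 70.6, 71.0 and 68.9 CPM in mLN. The organs were again apart in both genotypes, by 0.44 (SE 0.089, edgeR adjusted p = 0.00918) in WT and 0.45 (SE 0.09, edgeR adjusted p = 0.00417) in KO on the log2 scale.

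Mrpl15, the large-subunit gene with the smallest spread within groups, was at 69.9, 64.8, 65.3 and 63.4 CPM in WT spleen and at 91.6, 85.6 and 84.2 CPM in WT mLN. In KO it was at 62.5, 65.2, 70.0 and 70.1 CPM in spleen and at 85.8, 85.0, 83.9 and 89.1 CPM in mLN. All 7 mLN samples lay above all 8 spleen samples. On the log2 scale the difference was 0.40 (SE 0.077, edgeR adjusted p = 0.00767) in WT and 0.34 (SE 0.072, edgeR adjusted p = 0.00555) in KO. Mrpl2, Mrpl15, Mrpl30, Mrpl36, Mrps16 and Mrps34 are the 6 genes that were called in both genotypes under each setting planned for the 2 comparisons, samples left out in turn included. Without the 3 samples rich in erythroid markers, in a fit of 2 samples a group, WT calls were left for Mrpl30 among these 6. In the rest of the family they were left for Mrpl24, Mrpl32 and Mrpl57, the last 2 named after their values were seen.

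**Figure D5:**
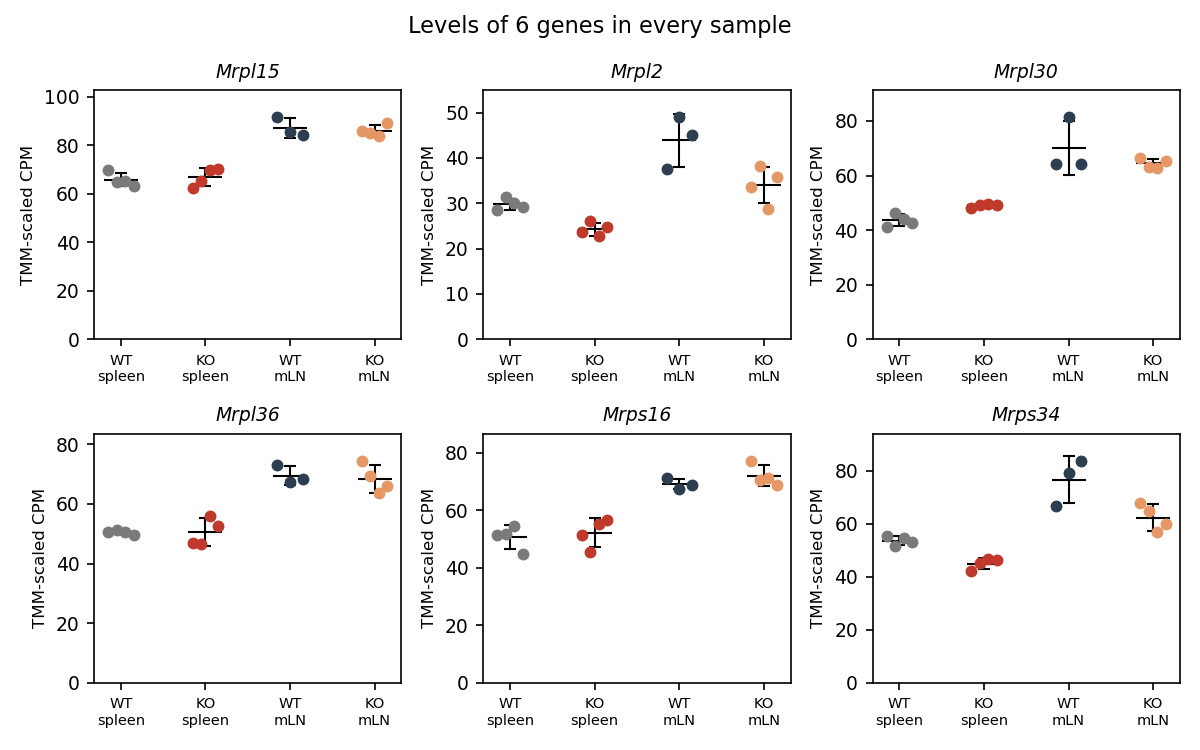
Levels of Mrpl15, Mrpl2, Mrpl30, Mrpl36, Mrps16 and Mrps34 in TMM-scaled CPM in every sample, with the mean and SD of each group. Within each genotype, all mLN samples lie above all spleen samples in each of the 6 genes. For Mrpl15 in WT these are 84.2 to 91.6 CPM against 63.4 to 69.9 CPM. Across genotypes, the lowest KO mLN sample of Mrpl2 (28.7 CPM) lies within the range of WT spleen (28.6 to 31.4 CPM).

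Mrpl34, whose promoter stretch held the ETS core, was at 20.4, 19.1, 22.2 and 20.3 CPM in WT spleen and at 29.6, 29.6 and 38.1 CPM in WT mLN. In KO it was at 18.3, 22.8, 23.7 and 24.1 CPM in spleen and at 38.9, 26.3, 27.1 and 36.3 CPM in mLN. The mLN samples were all higher, with a wide spread among them. Mrpl34 rose by 0.65 (SE 0.13, edgeR adjusted p = 0.00889) in WT and 0.51 (SE 0.15, edgeR adjusted p = 0.0305) in KO. Mrps6 was higher in mLN by 0.55 (SE 0.16, edgeR adjusted p = 0.0392) in WT and 0.49 (SE 0.15, edgeR adjusted p = 0.0315) in KO. The calls of Mrps6 were lost in 6 of 7 fits with a WT sample left out and in 5 of 8 with a KO sample left out, and that of Mrpl34 in KO was lost in 6 of 8.

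In KO the largest value was that of Mrpl24, a protein of the large subunit near its exit tunnel. It was at 57.6, 65.4, 60.7 and 69.4 CPM in KO spleen and at 106, 87.3, 91.4 and 83.3 CPM in KO mLN. In WT it was at 57.8, 61.9, 52.8 and 51.8 CPM in spleen and at 85.7, 81.6 and 66.6 CPM in mLN. Each genotype had its organs apart, although the lowest WT mLN sample lay among the KO spleen samples. The log2 fold change was 0.52 (SE 0.095, edgeR adjusted p = 0.0023) in KO and 0.47 (SE 0.11, edgeR adjusted p = 0.0165) in WT. Of its 2255 exon bases, 594 lie under Rrnad1 on the other strand.

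Mrps9, a small-subunit protein with a bacterial counterpart, was at 58, 52.6, 53.6 and 51.2 CPM in KO spleen and at 86.5, 69.2, 78.1 and 74.6 CPM in KO mLN. In WT it was at 50.8, 61.3, 58.3 and 63.8 CPM in spleen and at 69.3, 84.1 and 89.0 CPM in mLN. Mrps9 therefore had all 7 mLN samples above all 8 spleen samples, at 0.50 (SE 0.09, edgeR adjusted p = 0.00219) in KO and 0.46 (SE 0.12, edgeR adjusted p = 0.0238) in WT. Mrpl1, which builds the mobile stalk by which the ribosome releases tRNA, rose from 24.7 to 28.8 CPM in KO spleen to 31.8 to 40.5 CPM in KO mLN (0.47, SE 0.11, edgeR adjusted p = 0.0098). In WT, Mrpl1 rose by 0.41 (SE 0.12, edgeR adjusted p = 0.0443).

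Mrpl13 rose by 0.50 (SE 0.12, edgeR adjusted p = 0.0188) in WT and 0.42 (SE 0.09, edgeR adjusted p = 0.00576) in KO, and Mrps21 by 0.51 (SE 0.12, edgeR adjusted p = 0.0165) and 0.41 (SE 0.11, edgeR adjusted p = 0.0179). Mrpl54, a large-subunit protein particular to mitochondria, rose in WT from 35.6 to 46.5 CPM in spleen to 52.9 to 74.3 CPM in mLN (0.53, SE 0.14, edgeR adjusted p = 0.0275). In KO, Mrpl54 overlapped between the organs, at 38.4 to 45.6 CPM in spleen and 38.3 to 55.5 CPM in mLN (0.17, SE 0.13, edgeR adjusted p = 0.34), and its interaction with genotype was -0.34 (SE 0.20, edgeR adjusted p = 1.0). In WT, the calls of Mrpl13 and Mrpl54 were each lost in 3 of 7 fits with a sample left out and that of Mrps21 in 1 of 7.

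Among genes with roles beyond the ribosome's structure, Mrpl12, which also binds the mitochondrial RNA polymerase, was at 45.4 to 53.0 CPM in WT spleen, 48.4 to 59.6 CPM in KO spleen, 65.1 to 68.4 CPM in WT mLN and 64.4 to 73.8 CPM in KO mLN. The organs were apart for Mrpl12, which rose by 0.41 (SE 0.084, edgeR adjusted p = 0.0097) in WT and 0.28 (SE 0.091, edgeR adjusted p = 0.0414) in KO. Mrpl58, a peptidyl-tRNA hydrolase that frees stalled ribosomes, rose by 0.31 (SE 0.075, edgeR adjusted p = 0.0194) in WT and 0.32 (SE 0.078, edgeR adjusted p = 0.0116) in KO. Mrps12, a protein of the decoding centre, rose by 0.45 (SE 0.094, edgeR adjusted p = 0.0108) in WT and had a value of 0.29 (SE 0.11, edgeR adjusted p = 0.0883) in KO. Mrps36 lay at 6.98 to 10.9 CPM over all 15 samples, and its organ values of 0.049 (SE 0.18) in WT and 0.14 (SE 0.18) in KO did not pass the test.

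Not every gene shared the difference. Mrps14, a small-subunit protein with a bacterial counterpart and among the most abundant of the family, was at 120, 108, 125 and 128 CPM in WT spleen, 123, 115, 136 and 126 CPM in KO spleen, 114, 104 and 130 CPM in WT mLN and 128, 120, 116 and 113 CPM in KO mLN. The organs overlapped in both genotypes, and its log2 fold change was -0.065 (SE 0.10) in WT and -0.087 (SE 0.075) in KO. Mrps33, at 13.1 to 18 CPM in WT spleen and 15.4 to 16 CPM in WT mLN, had values of -0.04 and -0.051 (SE 0.15 in each). Mrpl42 had 0.014 (SE 0.08) in WT and -0.14 (SE 0.089) in KO. These 3 genes were named after their values were seen.

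For 33 of the 78 genes some exon bases lie under another gene, on the opposite strand in 28 and on the same strand in 8. Among the 45 genes whose exons overlap no other gene, 17 rose in WT and 13 in KO (medians 0.29 and 0.19). Among the 32 tested genes with an overlap, 19 rose in WT and 14 in KO (medians 0.32 and 0.26). These are 37.8% and 28.9% of the genes without an overlap and 59.4% and 43.8% of those with one. Over all genes tested, 9.70% were higher in WT and 11.4% in KO.

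The promoter windows of the genes called in both genotypes and in neither could be set side by side. The ETS core stood in 9 of 20 windows of genes called in both and in 10 of 32 of those called in neither. The E-box was found in 3 of 20 and 2 of 32, and the NRF1 part in 2 of 20 and 5 of 32. The YY1 part was in 0 of 20 and 8 of 32. These shares were not tested.

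Lists of other genes of mitochondrial translation were compared between the organs in the same way, and their differences from the family were not tested. Of 5 further subunits with other symbols, Gadd45gip1, Chchd1 and Aurkaip1 rose in WT and Ptcd3 fell. Gadd45gip1 rose by 0.46 (SE 0.084) in WT and 0.44 (SE 0.093) in KO, with edgeR adjusted p-values of 0.00547 and 0.00515. The genes that rose were 60% of the 5 in WT and 40% in KO, beside 9.70% and 11.4% of all genes. The calls of Gadd45gip1 held in each fit with a sample left out, while in WT those of Chchd1 and Aurkaip1 were lost in 6 of 7 such fits and that of Ptcd3 in 7 of 7, and in KO that of Chchd1 in 5 of 8. Of 13 translation factors, 2 (15.4%) rose in each genotype, beside 9.70% of all genes in WT and 11.4% in KO. They were Oxa1l, which inserts newly made proteins into the inner membrane (0.52, SE 0.082, in WT and 0.34, SE 0.086, in KO), and the translation factor gene Guf1 (0.43, SE 0.087, and 0.39, SE 0.10). None of the 13 fell, and 12 values were positive in WT and 13 in KO.

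Of 26 genes for mitoribosome assembly and rRNA modification, 8 rose and 0 fell in WT, and 6 rose and 2 fell in KO. Those that rose were 30.8% and 23.1% of the list, beside 9.70% of all genes in WT and 11.4% in KO. The 2 that fell in KO stand beside 13.9% of all genes. Ngrn, required for the stability of the large rRNA, rose by 0.93 (SE 0.14, edgeR adjusted p = 0.00286) in WT and 0.89 (SE 0.13, edgeR adjusted p = 0.000525) in KO, and Mrm2, an rRNA methyltransferase, by 0.65 (SE 0.18, edgeR adjusted p = 0.0301) and 1.02 (SE 0.15, edgeR adjusted p = 0.000638). The WT call of Mrm2 was lost in 6 of 7 fits with a sample left out. Of 17 mitochondrial aminoacyl-tRNA synthetases none rose and 3 fell in each genotype, Lars2, Vars2 and Aars2. Among all genes tested, 10.8% were lower in WT and 13.9% in KO. Lars2 fell by 1.07 (SE 0.14) in WT and 1.28 (SE 0.085) in KO on the log2 scale, and its calls held in each fit with a sample left out. Those of Aars2 were lost in 5 of 7 such fits in WT and 7 of 8 in KO, and that of Vars2 in 6 of 7 in WT. Of 15 genes of mitochondrial transcription and mRNA handling, 1 (6.67%) rose and 2 fell in each genotype, beside 9.70% higher and 10.8% lower among all genes in WT and 11.4% and 13.9% in KO. The gene that rose was Tefm in WT, lost in 6 of 7 fits with a sample left out, and Mtpap in KO, lost in 4 of 8. The genes that fell were Polg, the mitochondrial DNA polymerase, and Polrmt, the RNA polymerase, at -0.70 (SE 0.11) and -0.93 (SE 0.21) in WT and -0.49 (SE 0.12) and -0.54 (SE 0.16) in KO. The KO call of Polrmt was lost in 3 of 8 such fits.

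The reads of the 2 rRNAs of the mitoribosome went the other way from those of the mRNAs for its proteins. The libraries were made to sequence mRNA, and how fully they captured these rRNAs was not tested. mt-Rnr1 had a mean of 938 CPM in WT spleen and 209 CPM in WT mLN, and of 809 CPM in KO spleen and 173 CPM in KO mLN. It fell by 2.17 (SE 0.10, edgeR adjusted p = 2.36e-05) in WT and by 2.25 (SE 0.067, edgeR adjusted p = 1.1e-08) in KO on the log2 scale. mt-Rnr2 fell by 0.79 (SE 0.11, edgeR adjusted p = 0.00176) in WT and by 0.96 (SE 0.087, edgeR adjusted p = 2.22e-05) in KO. Of the 13 protein genes of the mitochondrial genome, 8 passed the filter, of which none was called in WT, while mt-Nd1 rose (0.43, SE 0.082) and mt-Nd6 fell (-0.38, SE 0.075) in KO. The 1 gene that rose in KO is 12.5% of the 8, near the 11.4% of all genes that were higher, and 13.9% of all genes were lower. Reads that aligned to several places were not counted, at 7.70 to 8.33% of reads in spleen and 8.62 to 9.44% in mLN, and the mitochondrial genome has copies in the nucleus.

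The genes of the cytosolic ribosomal proteins had larger organ differences, which were not tested against those of the mitoribosomal family. Here 75 of the 78 tested genes rose in WT and 71 in KO, with 0 fallen in each and medians of 0.78 and 0.62. These are 96.2% and 91.0%, beside 9.70% and 11.4% of all genes tested that were higher. Between the genotypes, 74 of the 78 cytosolic genes had a negative value in mLN (median -0.27) and 69 in spleen (median -0.12), and 1 passed the test, Rpl3 in mLN (-0.41, edgeR adjusted p = 0.0496). The call of Rpl3 was lost in 6 of 7 fits with a sample left out and in 4 of 9 other settings, where adjusted p-values ran from 0.000545 to 0.259. At an unadjusted edgeR p under 0.05, 57 cytosolic genes were lower in KO mLN and 19 in KO spleen, beside 1165 of 14359 and 1546 of 14254 genes. All KO samples lay below all WT samples for 44 in mLN and 4 in spleen, with backgrounds of 7.37% and 6.13%. Their summed level in KO was 0.823 times WT in mLN, without overlap, and 0.91 times in spleen, with overlap. In the mitoribosomal family, 37 of 77 genes had a negative value in mLN and 29 in spleen. No gene of the other lists, apart from Rpl3, was called between KO and WT.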

How the data were processed

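RNA was sequenced from CD4+ T cells of 15 samples, grouped by genotype and organ as labelled. The authors prepared libraries with a low-input kit, sequenced single-end reads, aligned them with STAR 2.6.1a to GRCm38 with GENCODE M23 in 2-pass mode, counted reads per gene with STAR, and deposited raw read counts per gene, which were used unchanged. Entries of the deposited counts that name no gene (unmapped, multimapping, no gene, ambiguous) stayed out of the library sizes. Of all uniquely aligned reads, 58.4 to 63.4% lay on no gene. Whether strand was used in counting is not given in the sources used here. The submitters' processing notes also name RSEM and DESeq2 1.22.2.

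Symbols, positions, lengths and GC content came from GENCODE M21, which held 55240 of the 55421 gene identifiers. Genes and lists were chosen with earlier results of these data known. Counts were tested with edgeR 4.0.16 in R 4.3.3 (edgeR's filter on low counts, TMM, quasi-likelihood test), with the samples of the 2 groups compared and p-values adjusted by Benjamini-Hochberg over all genes tested, at 0.05. The interaction used all 15 samples. SE is the absolute log2 fold change divided by the square root of F. The biological coefficient of variation ranged from 15.3% to 21.6%. The fits were tested on simulated data.

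Genes named were the 8 with the largest change among those called in each comparison and direction, the 3 with the smallest p in each direction between genotypes, the 3 with the smallest interaction p, the 5 highest and lowest per kilobase, the 3 with the largest and smallest spread among genes of at least 5 CPM, 4 with a known role, and up to 4 called genes of each other list. Alternatives were DESeq2 1.42.0, other scalings and filters, a fit over all samples, a correction for GC content and length, a replicate block, and each sample left out. Labels do not say which samples come from 1 mouse. Deviations of same-numbered WT spleen and mLN samples correlated at 0.244 to 0.293 in 3 pairs, so these numbers were taken to pair the organs in WT. In KO the 4 pairs gave 0.0288 to 0.263, and the numbers were not taken to pair them. The organ and interaction tests reported above used no pairing in either genotype. The paired fit with a replicate block is given below as an alternative. The study describes a single experiment with several mice per group, while the labels tie no sample to a mouse, so p-values measure the spread between samples of 1 experiment. Counting error is covered only as reads, since no molecular identifiers were used.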

Additional observations from a re-analysis of the deposited data

Results flagged for a closer look

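Groups of 4 samples of the named genes and of the summed level were searched for a sample far from the other 3, by the gap to its nearest neighbour as a share of the range. Chance gives such a sample in about 1 of 20 groups, and 4 of 102 groups held one. All 4 were in WT spleen. Mrpl46 was at 47.8 CPM in replicate 1 against 41.2 to 42.0 CPM in the other samples. Mrps12 was at 38.1 CPM in replicate 1 against 33.7 to 34.3 CPM, and Mrps27 was at 28.3 CPM in replicate 1 against 25.3 to 25.8 CPM. Mrpl19 was at 57.7 CPM in replicate 2 against 61.6 to 61.9 CPM.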

How the results depend on the processing

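In WT, between 24 and 46 genes of the family were higher in mLN under the scalings, filters, DESeq2, the fit over all samples, the replicate block and the GC and length correction, beside 36 as reported, and in KO between 19 and 33, beside 27. The paired fit with a replicate block called 46 in WT and 22 in KO, and 0 between the genotypes and for the interaction. All 36 WT calls were among the 46. The share of all genes called under these settings is not given here. By the same deviations, 6 of 6 paired WT samples but 4 of 8 KO samples correlated best with the sample of their own number, and same-numbered samples of the 2 genotypes ranged from -0.21 to 0.144. With each sample left out in turn, 16 to 31 genes were higher in WT and 15 to 30 in KO, and 0 were called in the other direction, between genotypes or for the interaction. Medians of the log2 fold change ranged from 0.29 to 0.35 and 0.19 to 0.25 between organs in WT and KO, from 0.029 to 0.055 between genotypes in spleen, and from -0.02 to 0.041 in mLN. A limit of 1 on the absolute log2 fold change left 0 genes in WT and 0 in KO, since no gene changed that far. DESeq2 called 1 gene, Mrps34, lower in KO spleen. The correction for GC content and length moved the WT organ median to 0.25, and library totals alone moved the WT ratio of summed levels to 1.19. Leaving out the 3 samples with over 500 CPM of erythroid markers, an alternative added after seeing the data, gave 4 genes in WT. The fit then held 2 samples a group. The cause of the other shifts was not tested. Mrps6 (both genotypes) lost its organ call without a filter and with the GC and length correction, and Mrps21 in WT with that correction.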
